A study of Mus musculus with 46 samples.

Results

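P019 is a promoter fragment of the mouse Klf2 locus, at 72475151 to 72475601 on chromosome 8 (mm10), that holds the annotated transcription start of Cherp. Its members were the Upstream constructs with P019 in either place and the Downstream constructs with P019 as the vector promoter; P019 inserted into other vectors was not included. They were 546 of the 19789 Klf2 constructs of the Upstream assay, in which a fragment pair lies before the reporter, and 232 of the 2364 constructs of the Downstream assay, in which P019 is the promoter of the vector and the partner is inserted after it. Upstream, 183 constructs had a candidate cis-regulatory element (cCRE) before P019 and 221 had one after it. A further 66 had another promoter before P019 and 76 had one after it. Downstream, 148 constructs carried one of 81 cCREs, 40 carried one of 20 control inserts (15 shuffled cCREs and 5 random sequences, each in both orientations) and 44 carried one of 23 promoter fragments. No member had a replicate at 0.

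The cells were E14TG2a, a mouse embryonic stem cell line, kept in 2i+LIF, a medium with small-molecule kinase inhibitors and the cytokine LIF that holds them in the naive state. Barcoded plasmids were brought in by nucleofection, as transient transfection, and RNA was taken after 24 h. Each library mix was transfected in 3 independent biological replicates, and 2 technical replicates of the plasmid pool were sequenced per mix as the input. All values below come from the same cells and growth condition, and groups are constructs and not treatments.

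A promoter is the stretch around a transcription start where RNA polymerase II is loaded, and a cCRE is a stretch whose chromatin marks it as a possible enhancer or silencer. In a massively parallel reporter assay each construct drives a transcript with its own barcode, so that barcodes in RNA over barcodes in plasmid give its activity. Cherp encodes the calcium homeostasis endoplasmic reticulum protein, an RNA-binding protein with roles in splicing and calcium release, expressed in many tissues. Klf2, for which the locus is named, encodes a transcription factor of the pluripotency network of mouse embryonic stem cells.

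The 250 bases before the Cherp start are shown because they are the annotated promoter core within P019, whose own fragment sequence was not used here. They lie at chr8:72475234-72475483 on the minus strand of GRCm38.p6 (the assembly of mm10), inside P019, and come from RefSeq. Cherp is transcribed from the minus strand, from 72475233 down to 72460483. Capitals mark the core of the binding motif of NRF1, an activator of housekeeping genes.

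Cherp promoter: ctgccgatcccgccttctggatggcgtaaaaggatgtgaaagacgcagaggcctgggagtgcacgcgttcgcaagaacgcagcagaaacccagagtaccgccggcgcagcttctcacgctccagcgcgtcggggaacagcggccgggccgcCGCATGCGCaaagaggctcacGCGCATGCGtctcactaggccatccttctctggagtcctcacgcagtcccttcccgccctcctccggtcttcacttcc

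This stretch held 64.4% G and C and 26 CG dinucleotides, against medians of 52.4% and 6 over 32817 RefSeq promoters of the same length, of which 9.6% had at least as many CG. The motif searches covered both strands and ran over these 250 bases and the 50 after the start. The NRF1 core (GCGCATGCG or CGCATGCGC) occurred 2 times, beginning 99 and 78 bases before the start, and 1.75% of all promoters held it. The SP1 core GGGCGG occurred 1 time (35.6% of promoters), and the ETS core CCGGAAG occurred 1 time, across the start (8.86%). A YY1 core, AAATGGCG, began at base 23 of the transcript (0.753%). None of CCAAT (37.4%), TATAAA (13.6%), the KLF core GGGTGTGG (3.56%), the OCT core ATGCAAAT (1.74%) or the ESRRB core TCAAGGTCA (0.424%) was in this window. These letters are a description and no measure of binding.

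P019 alone was an active promoter in both orientations and the more active one was -. In the + orientation its activities were 2.16, 2.09 and 2.00 in replicates 1, 2 and 3. In the - orientation they were 4.71, 4.54 and 4.09. The groups did not overlap, and - exceeded + by 2.13-fold, or 1.09 ± 0.05 (SD of the 3 within-replicate differences) on the log2 scale. An exact permutation test of 3 against 3 cannot give a p below 0.1, so none was run. Among the 46 oriented promoter fragments of the locus, P019- ranked 9 and P019+ ranked 16 by geometric mean (4.44 and 2.08). The nearest above P019- was P022-, the promoter of Smim7, at 4.77, 4.90 and 4.15, which overlapped the values of P019-. The nearest above P019+ was P009+, the promoter of the trafficking GTPase Rab8a, at 2.24, 2.03 and 2.02, which also overlapped. P016+, the Klf2 promoter, was below P019+ in every replicate, at 1.37, 1.20 and 1.49.

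What + and - mean relative to the genome or to the gene is not given in the sources used here. Of 23 promoter fragments, 11 reached an activity of 1 in an orientation. In 9 of these 11, + was higher in all 3 replicates, and P019 was the 1 fragment in which - was. Of 5 fragments that hold a RefSeq start on the minus strand only, 3 (P004, P021 and P022) were higher in + in all 3 replicates and 2 (P011 and P019) were higher in -. Of these 5, P004 and P011 had low activity, with geometric means of at most 0.171 and 0.152. The mean log2 difference, - minus +, was only -0.22 for P021, against -2.01 for P022 and 1.09 for P019. In these 5 fragments the orientation symbols did not follow the strand of the gene.

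The orientation of P019 also went with the activity when a cCRE stood before it. Of 80 oriented cCREs measured before both orientations of P019, 67 had lower activity with P019+ and 0 had higher, at a median log2 difference of -0.95 (limma, adjusted p below 0.05). The background of this test over all promoters was 42.2% called, 4.59% lower and 37.6% higher, at a median of 0.69. E061+ (chr8:72333997-72334447, between genes, nearest Eps15l1) gave 1.81, 1.82 and 1.71 before P019+ and 8.09, 8.62 and 6.43 before P019-. This was the lowest of the 80 differences, -2.10 ± 0.17 (SE; limma, adjusted p = 0.000425), with no overlap. E041- (chr8:72215053-72215503, between genes, nearest Cib3) was the 1 cCRE with the higher activity before P019+, 2.42, 1.68 and 2.03 against 1.44, 1.74 and 1.40. Its difference of 0.41 ± 0.20 did not pass (limma, adjusted p = 0.18), and its values overlapped. Without replicate 1 the count was 4 and without replicate 2 it was 23, all of them lower with P019+. Of the 80 differences, 71 had an unadjusted p below 0.05 in limma, and the 1 positive difference was not among them.

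A cCRE placed before P019 seldom raised its activity above that of P019 alone. Of 183 constructs, 9 rose and 42 fell (limma, adjusted p below 0.05). The background over all promoters was 16.1% called, 4.1% higher and 12.0% lower. The median log2 difference was -0.31 with P019 and -0.28 over all 3685 constructs tested. The 3 values of P019 alone are shared by all constructs of an orientation, so these differences are not independent of one another. P019 alone also lacks a second fragment, and no neutral second fragment served as a baseline Upstream. With the replicate as a block, 80 constructs passed, 12 higher and 68 lower. Leaving out replicate 1, 2 or 3 left 0 calls in limma, with 45, 38 and 92 at an unadjusted p below 0.05. Against the median construct with the same oriented P019 in place of P019 alone, 22 passed, 13 higher and 9 lower.

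E007, at chr8:71922525-71922975 within or overlapping the zinc finger gene Zfp617, gave the highest activities with P019. E007+ before P019+ had activities of 9.51, 11.5 and 8.01, a rise of 2.20 ± 0.17 on the log2 scale or 4.59-fold over P019+ alone (limma, adjusted p = 0.00654). E007+ before P019- had 16.3, 17.3 and 13.9, a rise of 1.83 ± 0.14 or 3.55-fold (limma, adjusted p = 0.00654). E007- before P019- had 9.99, 11.1 and 8.09, a rise of 1.12 ± 0.16 (limma, adjusted p = 0.0163). Every replicate of these constructs lay above every replicate of P019 alone, and E007- before P019+ was not measured.

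Constructs with E097- or E006+ before P019 also exceeded P019 alone in both orientations of P019. E097- (chr8:72676845-72677295, within or overlapping the Nwd1 gene) gave 9.98, 9.77 and 7.65 before P019- and 3.89, 3.58 and 2.94 before P019+. The rises were 1.03 ± 0.16 and 0.73 ± 0.15 (limma, adjusted p = 0.0178 and 0.0335). E006+ (chr8:71900631-71901081, between genes, nearest Zfp882) gave 3.88, 4.51 and 3.47 before P019+ and 7.18, 7.76 and 6.17 before P019-, rises of 0.92 ± 0.14 and 0.66 ± 0.14 (limma, adjusted p = 0.0181 and 0.0388). None of these 12 activities overlapped those of P019 alone in the same orientation.

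E061+ and E074+ rose with P019-. E074+ (chr8:72451423-72451873, within or overlapping 1700030K09Rik) gave 7.97, 7.61 and 6.71 before P019-, a rise of 0.74 ± 0.13 (limma, adjusted p = 0.024). E061+ before P019-, with the activities given above, rose by 0.79 ± 0.16 (limma, adjusted p = 0.0333). Before P019+ the log2 differences of E061+ and E074+ were -0.22 ± 0.11 and 0.00 ± 0.13, which did not pass (limma, adjusted p = 0.243 and 0.996). The difference between these differences was not tested.

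More constructs fell below P019 alone with P019- than with P019+, 32 of 103 against 10 of 80, at median log2 differences of -0.41 and -0.23. Each count rests on the 3 values of P019 alone in that orientation, and leaving out any replicate left 0 calls. Against the median construct, 9 were lower over both orientations. This split was not made for other promoters. Of the 80 oriented cCREs measured with both, 7 fell with both, 14 fell with P019- and did not pass with P019+, and 3 fell with P019+ and did not pass with P019-. None passed in opposite directions, and 3 rose with both (limma). The lowest was E098- (chr8:72677306-72677756, within or overlapping Nwd1) before P019-, at 1.49, 1.80 and 1.23, a difference of -1.57 ± 0.18 (limma, adjusted p = 0.0091). E041-, with the values above, E040+ (chr8:72211896-72212346, within or overlapping Cib3) and E030+ (chr8:72125819-72126269, within or overlapping Gm39196) followed, at -1.54, -1.45 and -1.41. E075- before P019- was at -1.36 and E081- (chr8:72539176-72539626, within or overlapping Med26, which encodes a Mediator subunit) was at -1.31. With P019+, E092+ (chr8:72654903-72655353, within or overlapping Nwd1) gave 0.578, 0.779 and 1.22 and E018+ (chr8:71978753-71979203, between genes, nearest Zfp961) gave 0.641, 0.757 and 1.25. Their differences were -1.34 ± 0.29 and -1.30 ± 0.28 (limma, adjusted p = 0.0397 and 0.0369), and with the replicate as a block that of E092+ did not pass (limma, adjusted p = 0.0517). Every replicate of these 8 constructs was below every replicate of P019 alone in the same orientation.

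E097 and E098 are neighbours, with starts 461 bp apart for fragments of 450 bp. E097- gave the log2 differences of 1.03 and 0.73 above, while E098+ gave -1.11 ± 0.13 before P019- and -0.64 ± 0.12 before P019+ (limma, adjusted p = 0.0091 and 0.0268). The activities of E098+ were 2.21, 2.05 and 1.91 before P019- and 1.40, 1.22 and 1.39 before P019+. In each orientation of P019 the values of E097- and E098+ did not overlap.

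None of the cCREs of the locus overlaps P019. The nearest by centre were E077 (chr8:72485412-72485862, within or overlapping Slc35e1, a solute carrier gene) at 10.3 kb, E076 (chr8:72460961-72461411, within or overlapping Cherp itself) at 14.2 kb and E075 (chr8:72453911-72454361, within or overlapping 1700030K09Rik) at 21.2 kb. The 4 constructs of E077 before P019 had log2 differences of -0.48 to -0.01 and the 4 of E076 of -0.41 to -0.30, and none passed (limma, lowest adjusted p = 0.0774). With the replicate as a block, E077+ and E077- before P019- passed as lower (limma, adjusted p = 0.0407 for both). E075 fell with P019- in both of its orientations, by -1.36 ± 0.24 and -0.77 ± 0.17 (limma, adjusted p = 0.0247 and 0.0391). Its activities were 2.39, 1.34 and 1.61 for E075- and 3.15, 2.42 and 2.31 for E075+, all below those of P019- alone.

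A cCRE placed after P019, between P019 and the reporter, went with far lower activity. Of 221 constructs, 208 fell below P019 alone and 1 rose, at a median log2 difference of -2.03, which is 4.08-fold lower (limma, adjusted p below 0.05). The background over all promoters was 52.6% called, 48.8% lower and 3.79% higher, at a median of -1.18, and included fragments of low activity. The median activity was 0.334, 0.287 and 0.498 in the 3 replicates over 114 constructs with P019+ and 1.35, 1.37 and 1.28 over 107 with P019-. With P019+ 17 of 114 constructs exceeded an activity of 1, and with P019- 81 of 107 did. With P019+ the median was highest in replicate 3 and lowest in replicate 2, and with P019- it was highest in replicate 2 and lowest in replicate 3. Promoters of low activity alone had the order seen with P019+, such as P005+ at 0.0986, 0.0402 and 0.216 and P011+ at 0.0918, 0.0482 and 0.235. The median SD of log2 activity between replicates was 0.41 for P019+ then cCRE against 0.18 for P019- then cCRE.

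The lowest constructs of this order were P019- then E075-, at 0.187, 0.232 and 0.482, and P019+ then E015-, at 0.130, 0.0806 and 0.370. Their log2 differences were -4.01 ± 0.39 and -3.73 ± 0.58 (limma, adjusted p = 0.00039 and 0.00241). P019+ then E096+, P019- then E098- and E003+ after either orientation of P019 lay between -3.59 and -3.41. No replicate of any of these constructs reached an activity of 0.5 or the level of P019 alone. Activities this low approach those of the weakest promoters alone, so the size of these differences is uncertain.

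The construct that rose was P019+ then E007+, at 4.40, 5.57 and 3.42, a rise of 1.07 ± 0.23 or 2.10-fold (limma, adjusted p = 0.00935). E008+, whose start lies 381 bp from that of E007 so that the fragments share sequence, gave 2.71, 3.31 and 2.58 after P019+ and 6.30, 6.93 and 5.11 after P019-. Both lay 0.45 above P019 alone on the log2 scale, with SE of 0.18 and 0.19, and neither passed (limma, adjusted p = 0.0847 and 0.108), although no replicate overlapped P019 alone. The activities of P019- then E007- were 4.91, 5.78 and 4.08, which overlapped P019- alone, at a log2 difference of 0.14 ± 0.20 (limma, adjusted p = 0.656). Without replicate 1 and without replicate 2 the count higher was 0 and the count lower was 149 and 179.

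The same oriented fragments were compared in both orders, a comparison added after the data were seen. Of 146 such pairs, 130 had higher activity with the cCRE before P019 and 0 with the cCRE after it (limma, adjusted p below 0.05, with 133 at an unadjusted p below 0.05). The background was 49.8% called, 48.6% higher with the cCRE before the promoter and 1.2% with it after. The median log2 difference was 1.60, or 3.04-fold, and 1.03 over all promoters. By its median P019 held place 7 of 22 promoter fragments, between P003 at 1.78 and P017 at 1.41. It was 2.16 for P019+ over 67 pairs and 1.19 for P019- over 79. The largest was E015- with P019+, 1.59, 1.49 and 1.90 before P019 against 0.130, 0.0806 and 0.370 after it, at 3.40 ± 0.58 (limma, adjusted p = 0.00431). The lowest was E008+ with P019+, 2.06, 2.05 and 2.01 before against 2.71, 3.31 and 2.58 after, at -0.48 ± 0.18 (limma, adjusted p = 0.0782). Without replicate 1 the count was 56.

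With another promoter before P019, activity both rose and fell against P019 alone. Of 66 constructs, 26 rose and 14 fell against P019 alone (limma, adjusted p below 0.05). The background over all promoter pairs was 41.2% called, 29.9% higher and 11.2% lower. The median log2 difference was 0.21, and 0.18 over all 1317 pairs. Leaving out replicate 1 left 0 calls in limma, with 27 at an unadjusted p below 0.05, and leaving out replicate 2 left 17, 9 higher and 8 lower.

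Constructs with P018, P021 or P022 before P019 exceeded P019 alone in 4 of 4 orientations each. P018 holds the starts of Calr3, a calreticulin gene, and 1700030K09Rik, P021 that of Med26 and P022 that of Smim7. P022+ before P019+ gave 10.6, 12.9 and 10.2, a rise of 2.42 ± 0.15 or 5.36-fold (limma, adjusted p = 0.000706), the highest of the 66. P022+ before P019- gave 15.4, 17.1 and 12.9, and P018- before P019- gave 15.5, 15.0 and 11.7, rises of 1.76 ± 0.16 and 1.65 ± 0.17 (limma, adjusted p = 0.0012 and 0.00156). Averaged over 4 constructs the log2 differences were 1.48 for P018, 1.43 for P022 and 1.24 for P021. P017+, which holds the start of the endocytosis gene Eps15l1, gave 6.08, 6.36 and 5.38 before P019+, a rise of 1.51 ± 0.13 (limma, adjusted p = 0.00106). P022+, P017+ and P021+ alone had geometric means of 18.6, 14.0 and 7.92. Before P019+ they gave 11.2, 5.92 and 5.25, below those levels. Before P019- they gave 15.0, 6.90 and 11.7, so that only P021+ exceeded its own level. P018+ and P018- alone were at 3.07 and 2.32, and all 4 P018 constructs were above, from 5.46 to 13.9. Which fragment of a pair started the transcript was not measured.

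Constructs with P004, the promoter fragment of the cytochrome gene Cyp4f18, before P019 were below P019 alone in 4 of 4 orientations, at a mean log2 difference of -1.60. P004- before P019- gave 1.14, 1.05 and 0.966 against 4.71, 4.54 and 4.09 for P019- alone, a difference of -2.08 ± 0.14 or 0.237-fold (limma, adjusted p = 0.000727). P004- before P019+ gave 0.603, 0.636 and 0.789, a difference of -1.63 ± 0.16 (limma, adjusted p = 0.00137). With P007, an olfactory receptor promoter fragment (Olfr374), before it P019 fell in 3 of 4 constructs, with P008 in 2 of 3, with P012 in 2 of 2, with P011 in 2 of 3 and with P010 in 1 of 4. With the replicate as a block P011+ before P019+ did not pass (limma, adjusted p = 0.0537). With the Klf2 promoter P016 before it P019 rose in 1 of 2, at a mean log2 difference of 0.37. P001, P003, P014, P017, P023 and P025 gave rises in 2 of 4, 1 of 2, 3 of 4, 3 of 4, 2 of 3 and 2 of 2 constructs, and no fall. P002, P005, P009 and P024 had no call among 4, 4, 4 and 1 constructs (limma).

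With P019 before another promoter, most pairs with a weak second promoter exceeded that promoter alone. Of 76 constructs, 41 rose above the second promoter alone and 4 fell, at a median log2 difference of 1.33 (limma, adjusted p below 0.05). The background over all pairs is the same as above, and it was not split by the activity of the second promoter. Of 45 constructs whose second promoter had an activity below 1 alone, 31 rose and 0 fell at a median of 2.39. Of the 31 constructs with a more active second promoter, 10 rose and 4 fell, at a median of 0.11. Among 22 promoter fragments placed before such weak promoters, P019 held place 4 by the median difference, after P022 (3.80), P021 (2.85) and P017 (2.67) and before P014 (2.05). Against 31 of 45 for P019, the counts higher were 38 of 43 for P022, 35 of 45 for P021, 48 of 51 for P017 and 21 of 32 for P014. From place 12 on, the medians were below 0. P002 at that place had 1 of 29 higher and P004 at place 22 had 0 of 28. These medians rest on second promoters of low activity, so their sizes are uncertain. Here too it was not measured which fragment started the transcript.

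The largest difference was with P002+ as the second promoter, a fragment with no RefSeq start. P002+ alone gave 0.145, 0.109 and 0.282, and P019- before it gave 6.19, 6.57 and 4.91, a difference of 5.15 ± 0.38 or 35.4-fold (limma, adjusted p = 0.000833). P019- before P008+ gave 3.62, 2.41 and 2.51 and P019- before P024+ gave 1.87, 2.41 and 1.81, at differences of 4.63 ± 0.60 and 4.19 ± 0.57 (limma, adjusted p = 0.00297 and 0.00363). All replicates of these 3 constructs were above 1.8 and all of P002+, P008+ and P024+ alone were below 0.3. The SD of log2 activity of these 3 promoters alone was 0.70, 1.13 and 1.11 between replicates. At baselines this low the size of the differences is uncertain. Of the 45 constructs with a weak second promoter, 42 stayed below P019 alone in the same orientation, at a median log2 difference of -1.65.

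The 4 that fell were P019+ before P003+, P017+, P014+ and P022+, each of which is more active alone than P019+. P019+ before P003+, the promoter of the zinc finger gene Zfp961, gave 4.56, 5.39 and 3.93 against 9.63, 9.38 and 7.63 for P003+ alone, a difference of -0.95 ± 0.18 (limma, adjusted p = 0.011). The differences of the other 3 were -0.88, -0.83 and -0.59, and the highest of their adjusted p-values in limma was 0.0451. Without replicate 1 no call was left among the 76, with 33 at an unadjusted p below 0.05 in limma, and without replicate 2 there were 27, all higher.

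In the Downstream assay P019 was a weak vector promoter, measured in the + orientation. The vector with no insert gave 0.341, 0.450 and 0.377, which ranked 9 of 10 promoter vectors, above P001 at 0.299, 0.368 and 0.394, with overlapping values. The next above was P016, the Klf2 promoter, at 0.815, 1.37 and 1.11, and the vector with no promoter gave 0.102, 0.194 and 0.155. Upstream, P019+ alone ranked 8 of the same 10 fragments. Activities of the assays come from separate mixes, so their levels are not set against each other.

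The 40 control constructs in the P019 vector had a geometric mean of 0.299, 0.378 and 0.335 in the 3 replicates, and their means ranged from 0.202 to 1.83 around a median of 0.298. The highest was a shuffled insert, E46-shuffled3+, at 1.86, 1.91 and 1.72, or 2.44 above the control mean on the log2 scale. The same insert was at a median of 0.16 with 8 other promoter vectors, each against its own control mean, and at most at 2.22. E27-shuffled3+ and E30-shuffled3-, also shuffled inserts, were 1.91 and 1.63 above it, with 1.12, 1.45 and 1.23 and with 0.935, 1.21 and 1.00. No cCRE construct of P019 exceeded the highest control and 5 of 148 were below the lowest. The SD of log2 activity over constructs was 0.72 for the controls and 0.47 for the cCREs. All replicates received 1 plasmid pool, and the spread between them holds no differences among the plasmids that carry a construct.

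Against the control mean, 46 of 148 cCRE constructs were higher and 21 were lower (limma, adjusted p below 0.05). The background over 10 promoter vectors was 52.3% called, 37.0% higher and 15.3% lower. The median log2 difference was 0.14 with P019 and 0.18 over all 1364 constructs. The split depended on the baseline. Against the vector alone 27 were higher and 39 lower, against the median cCRE construct 36 and 35, and against the median control, an alternative added after the data were seen, 83 and 10. With the replicate as a block 77 were higher and 44 lower. Without replicate 3 the counts were 25 and 6.

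E007 was again the highest, in both of its orientations. E007- gave 0.902, 1.01 and 0.947 and E007+ gave 0.826, 0.936 and 0.847, rises of 1.50 ± 0.12 and 1.37 ± 0.12, or 2.83-fold and 2.59-fold (limma, adjusted p = 8.05e-06 and 1.41e-05). E006+ and E006- gave 0.708, 0.775 and 0.752 and 0.662, 0.773 and 0.740, rises of 1.15 and 1.11. E046+ (chr8:72271221-72271671, between genes, nearest Gm51537) gave 0.732, 0.773 and 0.720, a rise of 1.14 ± 0.12 (limma, adjusted p = 3.37e-05). E008-, E021- and E097- rose by 1.07, 1.00 and 0.98. All replicates of these 8 constructs were above 0.6, and all replicates of the vector alone and of the control mean were at or below 0.450. Single control inserts reached this range. E46-shuffled3+, E27-shuffled3+ and E30-shuffled3- exceeded E007- in every replicate, and E6-shuffled3+ gave 0.677, 0.864 and 0.757. The p-values against the control mean leave out the spread among control constructs.

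The lowest was E022+ (chr8:72004717-72005167, within or overlapping Cyp4f18 and Gm51535), at 0.142, 0.217 and 0.168, a difference of -0.96 ± 0.16 (limma, adjusted p = 0.000548). E030 followed in both orientations, at -0.90 for E030- and -0.83 for E030+. E105+ (chr8:72734930-72735380, within or overlapping Sin3b, which encodes a corepressor scaffold), E081-, E075+, E092- and E098+ lay between -0.81 and -0.61, and the highest adjusted p of these 5 in limma was 0.00317. All replicates of the 8 were below 0.26 and below every replicate of the control mean. The lowest single control construct had a mean of 0.202.

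Of the nearest cCREs, E076-, from within or overlapping Cherp, gave 0.493, 0.554 and 0.519 after P019, a rise of 0.63 ± 0.12 (limma, adjusted p = 0.00123), and E076+ gave 0.284, 0.338 and 0.308, which did not pass (limma, adjusted p = 0.44) but did as lower with the replicate as a block (limma, adjusted p = 0.0248). E077+ rose by 0.46 ± 0.13 and E075+ and E075- fell, by -0.73 ± 0.13 and -0.35 ± 0.14 (limma, adjusted p = 0.0105, 0.000885 and 0.0462).

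Promoter fragments inserted downstream of P019 were tested against the same controls, a comparison added after the data were seen. Of 44 constructs, 22 were higher and 4 lower (limma, adjusted p below 0.05), with a background of 61.4% called, 46.2% higher and 15.2% lower. With the replicate as a block 26 were higher and 10 lower, and without replicate 1, 2 or 3 the count lower was 7, 2 and 2. P018- gave 0.923, 0.935 and 0.914, a rise of 1.46 ± 0.11, and the Klf2 promoter P016+ gave 0.723, 0.943 and 0.848, a rise of 1.31 ± 0.13 (limma, adjusted p = 8.4e-06 and 2.2e-05). P016-, P018+, P021- and P021+ rose by 1.29, 1.29, 1.17 and 1.13. P023- and P022- rose by 1.09 and 0.92. The lowest were P008- and P004-, at -0.97 and -0.96. P019 itself as an insert gave 0.467, 0.568 and 0.523 in + and 0.272, 0.364 and 0.311 in -. The + insert rose by 0.62 ± 0.12 and the - insert was at -0.10 ± 0.14 (limma, adjusted p = 0.00141 and 0.547), and their replicates did not overlap.

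Averaged over the constructs measured for each cCRE, E006, E007, E008, E020, E021 and E097 were among the 8 highest with P019 in both assays, of 68 Upstream and 81 Downstream. Upstream these were 2 constructs for E006, E021 and E097, 3 for E007 and E020 and 4 for E008. The averages therefore cover unlike sets of orientations, and the ranks depend on which constructs were measured. Their mean log2 differences Upstream were 1.72 for E007, 0.88 for E097 and 0.79 for E006. Those of E021, E020 and E008 were only 0.27, 0.20 and 0.20, and none of their constructs was among the 9 that rose Upstream. These are not 6 separate sequences, because E007 and E008 have starts 381 bp apart and E020 and E021, both within or overlapping Cyp4f18, have starts 176 bp apart. E030, E040, E075, E092 and E098 were among the 8 lowest in both. The boost index is the log2 activity of a construct minus that of the median cCRE construct with the same oriented promoter. Across oriented cCREs, Pearson's r of the Upstream and Downstream boost index was 0.61 for P019+ (n = 80) and 0.62 for P019- (n = 102). Without E007 it was 0.56 (n = 79) and 0.54 (n = 100). Between P019+ and P019- Upstream, r was 0.67 (n = 80) and 0.57 without E007 (n = 79). These points share promoters, plasmid pools and overlapping fragments, so r is a description. Between replicates r of log2 activity was 0.77 to 0.82 for P019+, 0.93 for P019- and 0.96 to 0.97 Downstream.

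The response of P019 to a cCRE was compared with the mean response of the other promoters to the same oriented cCRE, on the boost index. The other promoters were averaged within each replicate. The SE and p-values, here and Downstream, therefore leave out the spread among those promoters. Upstream, 0 of 183 constructs passed (limma, lowest adjusted p = 0.0529), 62 had an unadjusted p below 0.05, and the background was 0.0% of 3648. The largest difference upward was E027- before P019-, 6.77, 6.78 and 5.34, at 0.91 ± 0.10. It was followed by E061+ before P019- at 0.82 ± 0.13 and E065- before P019- at 0.81 ± 0.17. The lowest were E011- before P019- (5.42, 4.48 and 3.41) at -1.37 ± 0.23, E105+ before P019+ at -1.15 ± 0.17 and E018+ before P019+ at -1.02 ± 0.27. E007+ was at -0.20 ± 0.32 with P019+ and -0.40 ± 0.30 with P019-, so its high boost with P019 was not above that with the other promoters. The count depended on the other promoters used, and with those whose median construct exceeded an activity of 1, an alternative added after the data were seen, 78 passed, 50 higher and 28 lower.

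Downstream, 64 of 143 constructs passed, 29 higher and 35 lower with P019 than with the other promoters (limma, adjusted p below 0.05), and the background was 58.1% called, 24.9% higher and 33.2% lower. The split depended on how the other promoters were averaged. With their median in place of their mean, 38 were higher and 29 lower. E001+ (chr8:71885062-71885512, within or overlapping Zfp709) gave 0.557, 0.659 and 0.660 with P019, and its boost index of 0.75 exceeded all 5 other promoters, which ran from -0.77 to 0.42 around a median of -0.71. The difference from their mean was 1.24 ± 0.05 (limma, adjusted p = 5.04e-06), where SE and p leave out the spread among the 5 promoters. The same cCRE as E001- gave 0.260, 0.251 and 0.249, at 0.13 ± 0.07 (limma, adjusted p = 0.149).

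E072+ (chr8:72429642-72430092, within or overlapping Gm46043 and Calr3) gave 0.606, 0.729 and 0.577, with a boost index of 0.77 against -0.43 to 0.41 over 7 other promoters, a difference of 1.02 ± 0.07 (limma, adjusted p = 5.31e-05). E072- was at -0.09 ± 0.03, which did not pass (limma, adjusted p = 0.0649). E007+ had a boost index of 1.23 with P019 against 0.30 to 1.17 over 9 others, a difference of 0.59 ± 0.03 (limma, adjusted p = 2.45e-05), while E007- differed by 0.13 ± 0.04 (limma, adjusted p = 0.0228). E103-, E080-, E034-, E020- and E099- were higher with P019 by 0.72, 0.54, 0.45, 0.36 and 0.34. For E103- and E080-, 1 other promoter had a higher boost index than P019, and for E034-, E020- and E099- none did. With the replicate as a block E099- did not pass (limma, adjusted p = 0.0537).

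In the other direction, E105- gave 0.291, 0.368 and 0.326 and had a boost index of -0.18 with P019, below all 9 other promoters, which ran from 0.31 to 0.55. The difference was -0.57 ± 0.03 (limma, adjusted p = 3.26e-05). E081+ (-0.34 ± 0.03) and E017+ (-0.41 ± 0.04) were also lower with P019 than with each of 9 and 6 others (limma, adjusted p = 8.39e-05 and 0.00014). E087-, at 0.551, 0.470 and 0.544, differed by -0.59 ± 0.11, with 5 of 7 others above it. E065+, E073+, E029+ and E073- lay between -0.56 and -0.33, and some other promoters had a lower boost index than P019 with each of them. E029+ stood at 0.27 with P019, at the median of 0.27 over 6 others, of which P018 was highest at 2.03. The control insert E46-shuffled3+ above, which is no cCRE, stood at 2.44 with P019 against a median of 0.16 with other vectors, and the part that the plasmids of a single construct have in such differences was not tested.

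By Pearson's r of the boost index over shared oriented cCREs, the promoters most like P019+ Upstream were P013+ (r = 0.82, n = 29), P025+ (r = 0.79, n = 45) and P001+ (r = 0.76, n = 80). The set of shared cCREs differs between promoters. By Spearman's rho P025+ was at 0.60, below P001+ at 0.67 and P009+ at 0.64. For P019- they were P016+ (r = 0.80, n = 60), P009- (r = 0.79, n = 86) and P009+ (r = 0.77, n = 103). Downstream they were P017 (r = 0.85, n = 145), P013 (r = 0.83, n = 142) and P009 (r = 0.81, n = 120). P013 holds the start of Fam32a, P025 that of Sin3b, P001 that of Zfp882, P016 that of Klf2, P009 that of Rab8a and P017 that of Eps15l1. The points share cCREs and plasmid pools within an assay, and these r are descriptions.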

How the data were processed

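Samples were grouped by their titles; P019 was measured in 3 complementary DNA samples (reporter RNA) of the Klf2, Nanog and negative control Upstream mix and 3 of the Downstream mix. The authors deposited, for each construct and replicate, the ratio of complementary DNA to plasmid DNA barcodes on a linear scale as its activity; the submitters' processing notes name Bowtie2 and mm10. Barcode filters, averaging and scaling are not given in the sources used here, and the depth behind each value is unknown. In the tables, 9 columns of single replicates were given to no sample and not used.

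limma 3.58.1 (R 4.3.3, Python 3.11.15) tested log2 activities, 3 values of a construct against 3 of its baseline, with one fit per comparison over all promoters and Benjamini-Hochberg adjustment over the whole fit at 0.05. Baselines were the promoter alone Upstream and the mean over control inserts in the same vector Downstream. The sample titles list single fragments and combinations of the Klf2 locus as separate libraries. What adding any second fragment does to the activity Upstream was not tested. Comparisons with other promoters needed at least 3 others. P-values measure the spread between these 3 transfections. Each fit was tested on simulated data in which construct and baseline were drawn independently. Those data held neither the shared baselines nor the pairing of replicates, so they do not test the effect of either. Same-numbered values of construct and baseline come from the same sample, so the numbers pair them; their deviations correlated at 0.0201, 0.591 and 0.788 Upstream and 0.845 to 0.91 Downstream.

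Named were up to 8 constructs with the largest called difference in each direction, or the 3 largest as values where fewer passed, the 3 nearest cCREs, the 3 most alike promoters and the cCREs among the 8 highest in both assays. E098+ beside E097-, the opposite orientation of a named cCRE, the control inserts and the 8 lowest in both assays were chosen after their values were seen. The members, comparisons and motifs were chosen with earlier results of these data known.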

Additional observations from a re-analysis of the deposited data

How the results depend on the processing

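Replicate numbers pair the values, and the fit with the replicate as a block moved 2 total counts by over 1.5 times: cCREs before P019 from 51 to 80 calls and cCREs downstream of P019 from 67 to 121. It moved no other total that far, but promoter inserts below the controls Downstream went from 4 to 10. For cCREs before P019, quantile normalisation over replicates gave 106 calls, trended and robust moderation 105, a minimum activity of 0.1 gave 77 and the median construct as baseline 22. With a replicate left out, the calls were 0 each time for cCREs before P019, 0 to 30 for promoters before P019 (40 with all replicates), 0 to 47 for P019 before promoters (45), 4 to 52 for P019 orientation (67), 56 to 112 for the order of cCRE and P019 (130) and 31 to 72 for Downstream inserts (67). These fits had fewer samples. For the response of P019 against other promoters Upstream, 0 calls became 48 under quantile normalisation, 11 with a pseudocount of 0.01, 19 with a minimum activity of 0.1, 10 with the median over other promoters and 78 with promoters whose median construct exceeded an activity of 1; the cause was not tested. The other comparisons kept their total counts within 1.5 times. For the response of P019 Downstream, however, the median over other promoters turned 29 higher and 35 lower into 38 and 29. Of 1120 values of 127 named constructs under alternatives, 974 kept their direction and side of the threshold, 113 no longer passed, 33 newly passed and none reversed. Depth per construct is unknown, and the control inserts of the P019 vector varied more than its cCREs.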
